A study of Mus musculus with 11 samples.

Results

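The respiratory chain of the inner mitochondrial membrane is built from proteins of both nuclear and mitochondrial genes, and the nuclear genes for its subunits were followed here in Syncrip conditional knockout (cKO) and wild-type (WT) mouse neural progenitors and neocortical cells. Genes were taken by name, as symbols of the form Nduf with a, b, c, s or v and a number, Cox4 to Cox8 with an optional letter and digit, or any symbol that opens with Uqcr or Atp5, without names ending in -ps. The rule found 76 genes among the 48440 rows of the count table of cultured cells and 76 among the 32285 features of the single-cell data, 78 in all, of which 74 were in both. They comprise 35 subunit genes of complex I (7 core and 28 accessory), 8 of complex III, 16 of complex IV, 17 of complex V and 2 genes, Atp5s and Atp5sl, that carry the name without being subunits. The names leave out Cox4i1, Cyc1, Cycs, Ndufab1, the Sdh genes of complex II and every gene of the mitochondrial DNA.

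Complex I (NADH dehydrogenase) takes electrons from NADH and passes them to ubiquinone, complex III passes them on to cytochrome c, and complex IV (cytochrome c oxidase) reduces oxygen. These steps pump protons out of the matrix, and complex V, the ATP synthase, lets them return through its c ring while its F1 head makes ATP. The nuclear core subunits of complex I hold the redox centres or stand beside them, whereas the accessory subunits surround the core and serve in assembly and stability. Neural progenitors are known for a strong use of glycolysis, and oxidative phosphorylation becomes more prominent as neurons differentiate.

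Syncrip, an RNA-binding protein of the hnRNP family, was deleted with a floxed allele (Syncrip fl/fl, loxP sites around exons 2 to 4) and Emx1-Cre, which acts in progenitors of the dorsal neocortex and their progeny, on a C57BL/6 background. The cultures were neural progenitor cells (NPCs) grown with EGF and bFGF from the region of the lateral ventricle of E14.5 WT and Syncrip cKO embryos, 3 cultures of each genotype, read by bulk RNA-seq. The tissue was E14.5 dorsal telencephalon of 1 WT and 1 Syncrip cKO embryo, read by droplet scRNA-seq. The labels number the cultures without saying that they came from separate embryos, so the p-values measure the spread between these cultures, part of which may be technical.

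The cultures held 16962903 to 22708400 counts. The embryos gave 8214 cells (WT, median 11705 UMIs, each a counted RNA molecule) and 9560 cells (cKO, median 11012 UMIs). Syncrip itself was at 76.2, 79.3 and 81.1 CPM (counts scaled to 1 common library total) in WT and 89.3, 89.7 and 82.1 CPM in cKO cultures, and at 315 and 324 CPM in apical progenitors (APs) of the WT and the cKO embryo. These counts cover the whole gene or its 3′ end, so they do not check the loss of exons 2 to 4, and the genotypes are used as labelled. WT cultures 1 and 2 and cKO culture 1 had 327 to 448 CPM from Y-linked genes and the other 3 cultures at most 0.0453 CPM. Each genotype thus had cultures with and without these counts, so its 3 cultures were not all repeats of 1 embryo. Whether cultures alike in this came from the same embryo is not labelled. The WT embryo had Y-linked UMIs and the cKO embryo had Xist, so genotype and sex cannot be told apart in tissue. The embryo libraries shared 22 cell barcodes. Tubb3 and Gfap, a defining neuron and a defining astrocyte marker, were listed at 0 in every culture, as were Xist and the subunit gene Cox4i1 outside the name rule, so a 0 in the culture table is given below only as listed.

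Promoters are shown first because many of these genes carry short motifs of the same factors. RefSeq promoters (GRCm38.p6, 250 bases before to 50 after the start) matched 66 of the genes by symbol. A gene was counted where any of its promoters held the motif. The NRF1 motif, GCGCA followed by any base and GCGC and searched on both strands like the others, was in 15 of the 66 (22.7%) and in 5.19% of all 27025 genes with a promoter. The YY1 motif AAGATGGCG was in 8 (12.1%) against 1.64%, and the ETS motif CCGGAAG in 15 (22.7%) against 9.93%. Below are 120 bases before to 30 after the start of genes described in the next paragraphs, 5′ to 3′ on the strand of the gene, with capitals for a motif match. Uqcr11 and Cox8a have an ETS match, Ndufs6 and Ndufa8 have 1 NRF1 match each, Ndufb4 has 2 NRF1 matches, and Ndufs4 has none in this stretch. These genes are a selection: Ndufb8, Ndufv3, Cox5b and Ndufa2 fell by more than Ndufb4 and Ndufa8 and are not shown. The falling genes shown all hold a match, unlike the falling genes as a whole.
Uqcr11 promoter, chr10:80406792-80406941, minus strand: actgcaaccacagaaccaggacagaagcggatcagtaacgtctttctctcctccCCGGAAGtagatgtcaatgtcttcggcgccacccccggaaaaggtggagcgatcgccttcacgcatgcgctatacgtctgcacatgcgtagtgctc
Cox8a promoter, chr19:7217587-7217736, minus strand: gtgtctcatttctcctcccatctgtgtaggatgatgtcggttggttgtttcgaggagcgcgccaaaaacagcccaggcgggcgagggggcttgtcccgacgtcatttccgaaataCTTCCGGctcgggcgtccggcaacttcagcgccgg
Ndufs6 promoter, chr13:73328453-73328602, minus strand: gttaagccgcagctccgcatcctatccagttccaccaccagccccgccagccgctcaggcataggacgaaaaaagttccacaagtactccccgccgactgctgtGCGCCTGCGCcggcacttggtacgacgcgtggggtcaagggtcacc
Ndufb4 promoter, chr16:37654339-37654488, minus strand: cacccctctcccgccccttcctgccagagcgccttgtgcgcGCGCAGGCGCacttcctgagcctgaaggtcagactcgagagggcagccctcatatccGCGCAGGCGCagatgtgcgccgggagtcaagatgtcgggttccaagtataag
Ndufa8 promoter, chr2:36049309-36049458, minus strand: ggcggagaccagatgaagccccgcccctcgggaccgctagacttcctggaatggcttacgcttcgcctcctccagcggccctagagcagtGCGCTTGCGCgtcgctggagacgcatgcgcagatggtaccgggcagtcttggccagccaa
Ndufs4 promoter, chr13:114388065-114388214, minus strand: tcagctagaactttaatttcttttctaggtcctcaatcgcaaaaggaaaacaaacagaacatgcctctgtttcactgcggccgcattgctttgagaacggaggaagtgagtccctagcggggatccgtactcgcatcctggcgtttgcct
Among the promoters of 14 genes that were lower in the cKO cultures, 4 held the NRF1 motif, 2 the YY1 motif and 2 the ETS motif, and among those of 46 genes that did not pass the test these numbers were 11, 5 and 12. A match is a run of letters and not a measured binding site.

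To ask how loss of Syncrip bears on these genes in progenitor culture, the 3 cKO cultures were compared with the 3 WT cultures. Of 71 respiratory chain genes with enough counts to test, 17 (23.9%) were lower in the cKO cultures and 2 (2.82%) higher, by edgeR's quasi-likelihood test at a Benjamini-Hochberg adjusted p below 0.05. Over all 14432 genes tested, 19.8% were lower and 19.7% higher, so the share of lower genes was near that of all genes and the share of higher genes was smaller. The median log2 fold change of the 71 genes was -0.20, against 0.00 over all genes, and 62 of the 71 lay below 0. In 23 of the 71 all 3 cKO cultures were below all 3 WT cultures (24.7% of all genes), and in 1 they were all above (25.7% of all genes). The 5 untested genes were Ndufa13, Cox6a2 and Cox8c, listed at 0 in all cultures, and Cox7b2 and Cox8b, each with at most 5 counts in a culture.

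**Figure D1:**
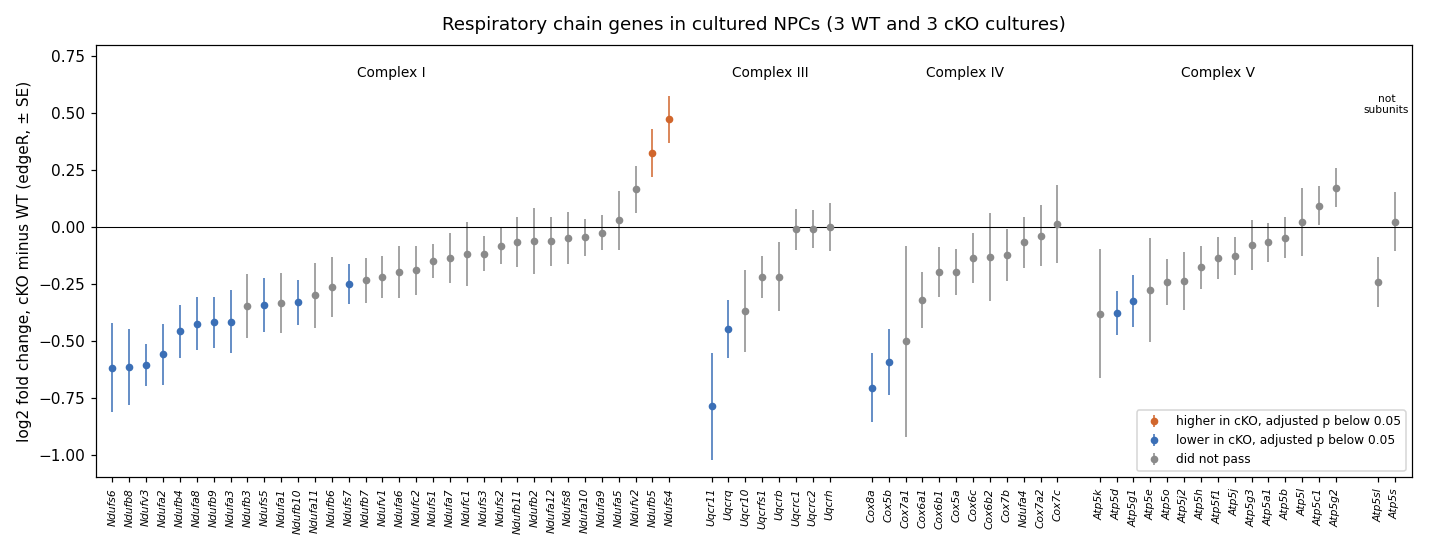
Log2 fold change (cKO minus WT, points, with the SE from edgeR as bars) of the 71 tested respiratory chain genes in cultured NPCs, ordered within each complex, with blue for genes that were lower and orange for genes that were higher at an adjusted p below 0.05. The 17 blue genes reach from -0.25 (Ndufs7) to -0.79 (Uqcr11), and the 2 orange genes, Ndufb5 and Ndufs4, are both in complex I.

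The falls were spread over the complexes, with 11 of 34 tested genes of complex I (32.4%), 2 of 8 of complex III (25%), 2 of 12 of complex IV (16.7%) and 2 of 15 of complex V (13.3%), beside 19.8% of all genes. Within complex I, 10 of 27 accessory subunits fell and 2 rose, and 1 of the 7 core subunits fell; the difference between these roles was not tested. That core gene, Ndufs7, which holds an iron-sulfur cluster near the ubiquinone site, was at 90.4, 92.9 and 77.6 CPM in WT and 77.5, 69.5 and 72.1 CPM in cKO cultures (log2 fold change -0.25 ± 0.09, SE, edgeR, adjusted p = 0.034). The other 6 core genes had log2 fold changes from -0.22 to 0.17 and did not pass the test. The core proteins of complex III, Uqcrc1 and Uqcrc2, had log2 fold changes of -0.01 each.

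The largest fall was that of Uqcr11, a small subunit of complex III, with 28.6, 53.1 and 33.2 CPM in WT and 20.1, 19.3 and 26.9 CPM in cKO cultures. Its groups did not overlap, and its log2 fold change was -0.79 ± 0.24 (SE, edgeR, adjusted p = 0.0294). Uqcrq, the ubiquinone-binding small subunit of the same complex, went from 66.7, 85.2 and 63.8 CPM to 48.6, 46.7 and 62.6 CPM, with a log2 fold change of -0.45 ± 0.13 (adjusted p = 0.0129). In both genes WT culture 2 was the highest of all 6 cultures.

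In complex IV, Cox8a, the small subunit of most tissues, was at 108, 167 and 119 CPM in WT and 82.1, 70.3 and 89.0 CPM in cKO cultures, so all cKO values lay below all WT values. Its log2 fold change was -0.70 ± 0.15 (SE, edgeR, adjusted p = 0.0044). Cox5b, which binds zinc on the matrix side of the complex, was at 37.2, 56.0 and 45.2 CPM in WT and 32.7, 25.2 and 33.7 CPM in cKO cultures (log2 fold change -0.59 ± 0.14, adjusted p = 0.00521). Its groups were again apart.

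Accessory subunits of complex I made up the other large falls. Ndufv3, a small subunit of the NADH-binding module, had 67.9, 77.4 and 65.6 CPM in WT and 44.7, 45.0 and 48.7 CPM in cKO cultures, with the smallest adjusted p of the respiratory chain genes (log2 fold change -0.61 ± 0.09, SE, edgeR, adjusted p = 0.000182). Ndufb8, of the membrane arm, had 17.4, 28.4 and 23.0 CPM against 12.1, 16.5 and 16.2 CPM (-0.62 ± 0.17, adjusted p = 0.0101). In both, every cKO culture was below every WT culture. Ndufa2, of the peripheral arm, had 32.2, 47.1 and 35.0 CPM against 23.7, 24.9 and 28.8 CPM (-0.56 ± 0.13, adjusted p = 0.00479). Ndufb4, whose promoter has the pair of NRF1 matches above, had 36.7, 43.1 and 32.2 CPM against 27.1, 24.6 and 29.6 CPM (-0.46 ± 0.12, adjusted p = 0.0067). The groups of these genes too were apart. Ndufs6, which carries zinc and serves in late assembly, passed the test (-0.62 ± 0.20, adjusted p = 0.0222) although its groups overlapped, at 10.6, 20.1 and 14.6 CPM in WT and 9.07, 11.1 and 9.31 CPM in cKO cultures. In these 5 genes WT culture 2 was again the highest.

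Ndufa8, Ndufb9, Ndufa3, Ndufs5 and Ndufb10, all accessory subunits of complex I, fell with log2 fold changes from -0.43 (Ndufa8) to -0.33 (Ndufb10), each with its groups apart. In complex V, Atp5d, a subunit of the F1 central stalk, fell from 154, 197 and 157 CPM to 122, 136 and 133 CPM (log2 fold change -0.38 ± 0.10, SE, edgeR, adjusted p = 0.00654). For Ndufb9, 19.5% of the exon bases are shared with Gm49356, and how the authors counted such reads is not given in the sources used here.

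Both genes that rose are accessory subunits of complex I. Ndufs4, a peripheral-arm subunit whose loss in mice gives a model of Leigh syndrome, was at 52.0, 44.2 and 39.8 CPM in WT and 66.1, 61.3 and 61.3 CPM in cKO cultures, with all cKO values higher (log2 fold change 0.47 ± 0.10, SE, edgeR, adjusted p = 0.00276). Ndufb5, of the membrane arm, was at 79.3, 68.3 and 59.7 CPM in WT and 92.9, 77.1 and 89.9 CPM in cKO cultures, and cKO culture 2 was below WT culture 1 (0.33 ± 0.11, adjusted p = 0.0253). Ndufb5 shares 12.3% of its exon bases with Mrpl47.

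**Figure D2:**
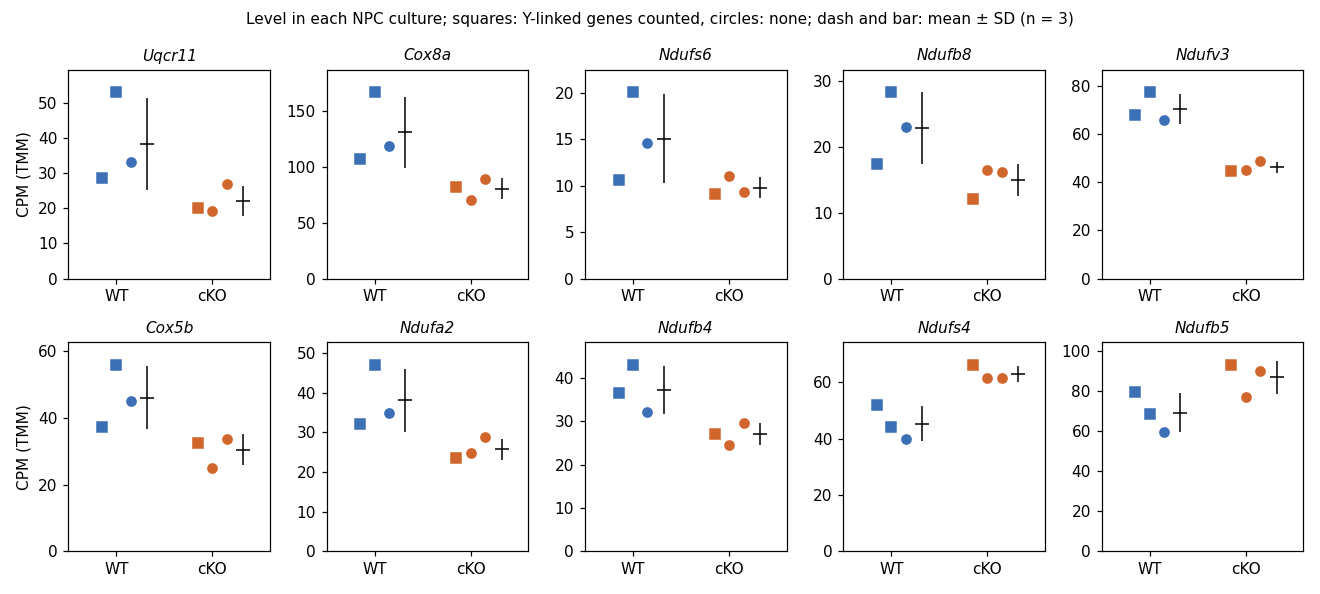
Level (CPM with TMM scaling, axis from 0) of the 8 genes with the largest falls and the 2 genes that rose in each WT (blue) and cKO (orange) culture, as squares where Y-linked genes were counted and circles where they were not, with a dash and bar for the mean ± SD of 3 cultures. In all 8 falls WT culture 2 is the upper WT square and the highest WT value, which is not so in the 2 genes that rose. In Ndufs4 the cKO cultures lie at 61.3 to 66.1 CPM above all WT cultures.

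Several subunits of complexes IV and V have isoform genes, and the isoforms known from most tissues gave nearly all of their reads. RPKM here is CPM divided by exon length in kilobases, where exon length is the union of all annotated exons and not the length of a transcript. On this per-length scale Cox6a1 was at 292 and Cox6a2, the heart and muscle isoform, listed at 0 in WT cultures. Cox6b1 was at 153 RPKM and Cox6b2, known from testis, at 8.78, while Cox7a2 was at 65.9 and the heart and muscle isoform Cox7a1 at 1.56. Cox8a was at 212 RPKM, Cox8b at 0.404 and Cox8c listed at 0. The c ring protein is made from Atp5g1, Atp5g2 and Atp5g3, which differ in their import peptides, and these were at 8.81, 66.3 and 82.9 RPKM. Their exon unions are 4912, 1675 and 2181 bases, so the RPKM of Atp5g1 is divided by the most bases and is not a ranking of transcript numbers. Atp5g1 fell in the cKO cultures, from 40.8, 49.6 and 39.4 CPM to 32.3, 32.2 and 38.9 CPM (log2 fold change -0.33 ± 0.11, SE, edgeR, adjusted p = 0.0355). Atp5g2 (0.17 ± 0.09) and Atp5g3 (-0.08 ± 0.11) did not pass, nor did Cox6a1 (-0.32 ± 0.12, adjusted p = 0.0547), Cox6b1 (-0.20), Cox6b2 (-0.13), Cox7a1 (-0.50), Cox7a2 (-0.04) or Cox7b (-0.12).

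Measures that moved with these differences were taken in the same cultures. The median deviation of the 71 genes from the WT mean (log2) was 0.03, 0.14 and -0.16 in WT cultures 1 to 3 and -0.16, -0.30 and -0.08 in cKO cultures 1 to 3, so WT culture 3 lay among the cKO cultures. Among cultures with Y-linked counts (2 WT, 1 cKO) the median difference, cKO minus WT, in log2(CPM + 0.5) was -0.26 with 63 of 71 genes lower, and among those without (1 WT, 2 cKO) it was 0.00 with 35 of 71 lower. Leaving out WT culture 2 left 8 lower genes (2332 of 14786 over all genes) and leaving out cKO culture 2 left 10 (2274 of 14775). Leaving out WT culture 3 gave 29 (2582 of 14689). Without WT culture 2, Ndufb8, Ndufs6, Ndufa8, Ndufa3, Ndufs5, Ndufb10, Ndufs7, Uqcrq, Atp5g1 and Ndufb5 no longer passed. Uqcr11 no longer passed without cKO culture 1 or 2, Ndufs6 without cKO culture 1 or 3, and Ndufb5 without WT culture 3, cKO culture 1 or cKO culture 3. Ndufa3, Ndufs5, Ndufb10, Ndufs7, Uqcrq and Atp5g1 also no longer passed without cKO culture 2, Ndufs5 and Atp5g1 without cKO culture 1, Ndufs7 without cKO culture 3 and Ndufa3 without WT culture 1. Ndufa2, Ndufb4, Ndufb9, Ndufv3, Cox5b, Cox8a, Atp5d and Ndufs4 passed without any 1 of the 6 cultures.

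Exon length, the union of all annotated exons of a gene and not the length of a transcript, moved with the differences as well. For the 18 genes with at most 1000 exon bases the median log2 fold change was -0.35, against -0.0047 for all 794 tested genes of that length. Of the 18, 6 fell, beside 10.8% of all genes of that length. The median was -0.18 for 25 genes of over 1000 to 2000 bases (all genes -0.07), -0.10 for 18 of over 2000 to 4000 (all genes -0.04) and -0.05 for 8 of over 4000 to 8000 (all genes 0.02). Taking out a trend of fold change on genomic span, fitted across all genes, left 15 lower and 3 higher genes. Over all 14432 genes it left 2719 lower and 2855 higher. The part of length in the result was not tested further.

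Other gene groups of energy metabolism did not share 1 direction, and their counts stand beside the 19.8% lower and 19.7% higher of all genes. Of 17 glycolysis genes 10 fell and 1 rose, with a median log2 fold change of -0.52, and their summed level was 4274 to 5011 CPM in WT and 3386 to 3753 CPM in cKO cultures. Of 14 genes of the tricarboxylic acid cycle 4 fell (28.6%). Of 11 complex I assembly factors 1 fell and 2 rose, of 20 assembly factors of complexes III to V 1 fell and 1 rose, and of 14 regulators of mitochondrial biogenesis 2 fell and 2 rose. Of 11 subunit genes outside the name rule 2 fell. Of 12 genes of the mitochondrial DNA 2 fell and 2 rose, and their summed level was 27951 to 45916 CPM in WT and 40481 to 47620 CPM in cKO cultures. The respiratory chain genes together were at 7157, 7742 and 6232 CPM in WT and 6487, 6029 and 6827 CPM in cKO cultures, ranges that overlap.

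Markers of other cell types in the cultures also differed. Of 9 tested neuron markers 7 were lower in the cKO cultures, with Stmn2 at 13.2 to 16.4 CPM in WT and at most 0.193 CPM in cKO cultures, while the summed neuron list, carried by Map2, was at 2318 to 2623 CPM in WT and 2359 to 2464 CPM in cKO cultures. Of 6 tested astrocyte markers 5 were lower, and their sum was 4031 to 4461 CPM in WT and 2444 to 2757 CPM in cKO cultures. Of 6 progenitor markers 3 were higher and 2 lower, of 7 oligodendrocyte lineage markers 2 and 2, and of 8 hypoxia response genes 2 and 3. The part of these cell types in the respiratory chain result was not tested, and fewer cells of a type cannot be told apart from less RNA per cell.

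In tissue, the genes were followed across cell classes of the E14.5 embryos. Cells were clustered without the respiratory chain genes, the mitochondrial genes and sex genes, and clusters were named from fixed markers, which gave 24 named clusters of 26, each name standing for cells like that type. APs (961 WT and 1318 cKO cells), intermediate progenitors (IPs, 640 and 689), migrating neurons (2053 and 2270), immature neurons (2323 and 2427), Cajal-Retzius-like cells (63 and 111) and cells with markers of the ganglionic eminence (GE cells, 1191 and 1641) were the neural classes. GE cells, marked by Dlx genes and Gad2, were present although the tissue is labelled as dorsal, and Emx1-Cre is not expected to act in their lineage. There was 1 embryo per genotype, so levels carry 95% exact Poisson intervals for counting error only and no comparison of embryos has a test.

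Among the 6 neural classes, the summed level of the 76 genes was highest in Cajal-Retzius-like cells, early-born neurons of the marginal zone, at 24561 CPM (24234 to 24891) in the WT and 26330 CPM (26047 to 26616) in the cKO embryo. APs, the radial glial stem cells of the ventricular zone, followed at 20474 (20396 to 20552) and 21936 CPM (21869 to 22002), and IPs, their dividing daughters, at 19075 and 20062 CPM. Immature neurons were at 17171 and 18748 CPM, GE cells at 16701 and 17690 CPM and migrating neurons at 16341 and 17136 CPM. Pericytes, outside the neural classes, were at 24959 and 23671 CPM. The order of the neural classes was the same in both embryos, and no counting intervals of neighbours in it overlapped. Cajal-Retzius-like cells and APs kept the first and second place under every alternative of clustering, filtering or scaling listed in the closing section, while the lowest place passed to GE cells when cells were weighted equally.

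Along the lineage the step from IPs to migrating neurons had the largest median difference of the 3 steps. Of 72 genes with at least 200 UMIs in the neural classes, 49 were lower in IPs than in APs in both embryos and 13 higher in both, on a scale of log2(CPM + 1), against 50.02% and 38.48% of all genes. From IPs to migrating neurons 65 were lower in both embryos and 4 higher, with medians of -0.20 and -0.22, while over all genes 49.8% were lower and 38.6% higher. From migrating to immature neurons the direction turned, with 48 genes higher and 15 lower (all genes 37.4% and 50.2%). From immature neurons to Cajal-Retzius-like cells 66 genes were higher and 3 lower, with medians of 0.55 and 0.51, against 45.6% and 34.8% of all genes. These counts describe 2 embryos, whose cells come from 1 library each.

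**Figure D3:**
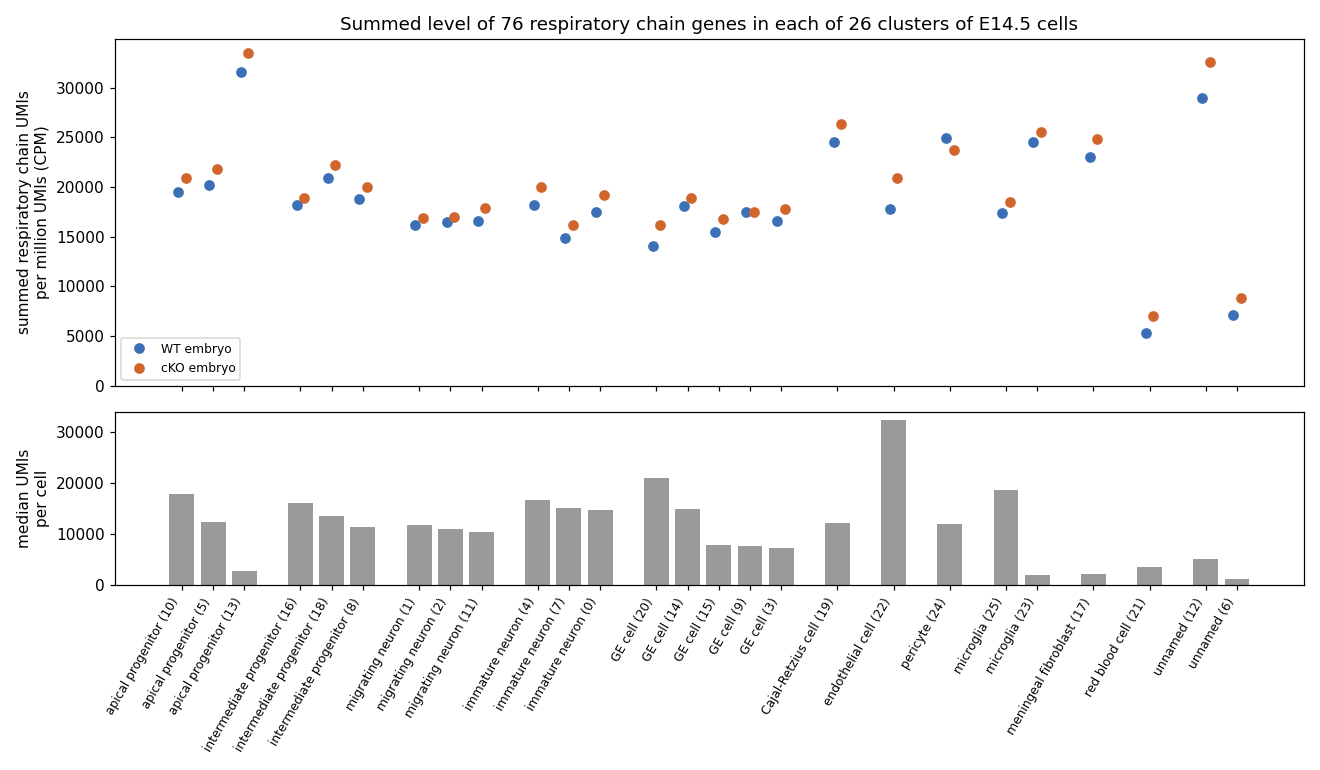
Summed level of the 76 respiratory chain genes (upper panel, CPM, axis from 0) in each of 26 clusters of the WT (blue) and cKO (orange) embryo, with the median UMIs per cell of each cluster below it, and cluster numbers in brackets. The cKO value is above the WT value in 25 of the 26 clusters, all but the pericytes, and clusters with few UMIs per cell include the highest and the lowest levels.

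Clusters of low UMI count stood apart. AP cluster 13, with a median of 2776 UMIs, was at 32658 CPM for the respiratory chain genes, 237470 CPM for cytosolic ribosomal protein genes and 2888 CPM for Malat1, a nuclear RNA, against 21171, 151000 and 7143 CPM in the largest AP cluster. Without the clusters of low UMI count, APs were at 19870 CPM in the WT and 21388 CPM in the cKO embryo, still second in the order. The 2 unnamed clusters, at medians of 1145 and 5069 UMIs, were at 8064 and 30608 CPM and are in none of the classes.

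The nuclear and the mitochondrial genes of the chain took different orders. Among the neural classes, the 13 genes of the mitochondrial DNA were highest in migrating neurons, at 17708 and 17431 CPM in the WT and the cKO embryo, where the nuclear genes were lowest. In APs they were at 14907 and 14452 CPM. The ratio of nuclear to mitochondrial CPM was therefore 1.37 and 1.52 in APs, 1.18 and 1.26 in IPs, 0.92 and 0.98 in migrating neurons, 1.07 and 1.16 in immature neurons, 1.06 and 1.09 in GE cells and 1.69 and 1.74 in Cajal-Retzius-like cells. Glycolysis genes had another order again, at 5063 and 5508 CPM in APs, 3099 and 3228 CPM in IPs and 2205 and 2158 CPM in migrating neurons. Ribosomal protein genes were higher in APs (142710 and 145440 CPM) than in migrating neurons (110990 and 114610 CPM), and their part in the order was not tested.

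Single genes differed in how far they varied. Cajal-Retzius-like cells were the highest neural class in both embryos for 50 of the 72 genes, APs for 10, IPs for 5 and GE cells for 1. Migrating neurons were the lowest class in both embryos for 23 genes, and GE cells for another 23. The span, the log2 ratio of the highest to the lowest class over both embryos, had its largest value in Cox6b2, with 2.57. Cox6b2 was at 4.41 and 4.57 CPM in APs, 2.14 and 2.83 CPM in IPs and 0.745 and 0.774 CPM in GE cells, from 342 UMIs in all. Cox7a1 (span 2.50) was instead at 4.56 and 7.19 CPM in Cajal-Retzius-like cells, from 4 and 9 UMIs (intervals 1.24 to 11.7 and 3.29 to 13.7 CPM), and at 1.02 to 1.81 CPM in every other neural class, which the WT interval reaches. These minor isoforms came from 342 and 272 UMIs, against 84422 of Cox6b1 and 71919 of Cox7a2.

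Among abundant genes the widest was Ndufb2, an accessory subunit of the membrane arm of complex I (span 1.45). It was at 298 and 327 CPM in Cajal-Retzius-like cells and between 108 and 144 CPM in the other 5 neural classes of both embryos. Uqcr10, a small subunit of complex III (1.24), was at 314 and 312 CPM in Cajal-Retzius-like cells, 216 and 260 CPM in APs and 121 and 143 CPM in migrating neurons. Ndufs8, a core subunit with iron-sulfur clusters (1.19), and Ndufb6 (1.19) had the same highest class. Cox5a went the other way from most genes: GE cells were highest at 618 and 653 CPM, and APs were at 502 and 501 CPM.

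The smallest spans were those of Atp5c1, the central stalk of F1 (0.24), Uqcrh, the hinge protein of complex III (0.29), Ndufs4 (0.32), Ndufa10 (0.33) and the core protein gene Uqcrc2 (0.33). Ndufs4, which rose in the cKO cultures, was at 194 to 246 CPM in all neural classes of both embryos. By role, the median span was 0.94 for the small subunits of complex III against 0.39 for its core proteins, and 0.78 for the accessory against 0.54 for the core subunits of complex I. Genes with fewer bases in their union of exons again had larger values, with a median span of 0.95 up to 1000 exon bases and 0.51 above 4000.

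**Figure D4:**
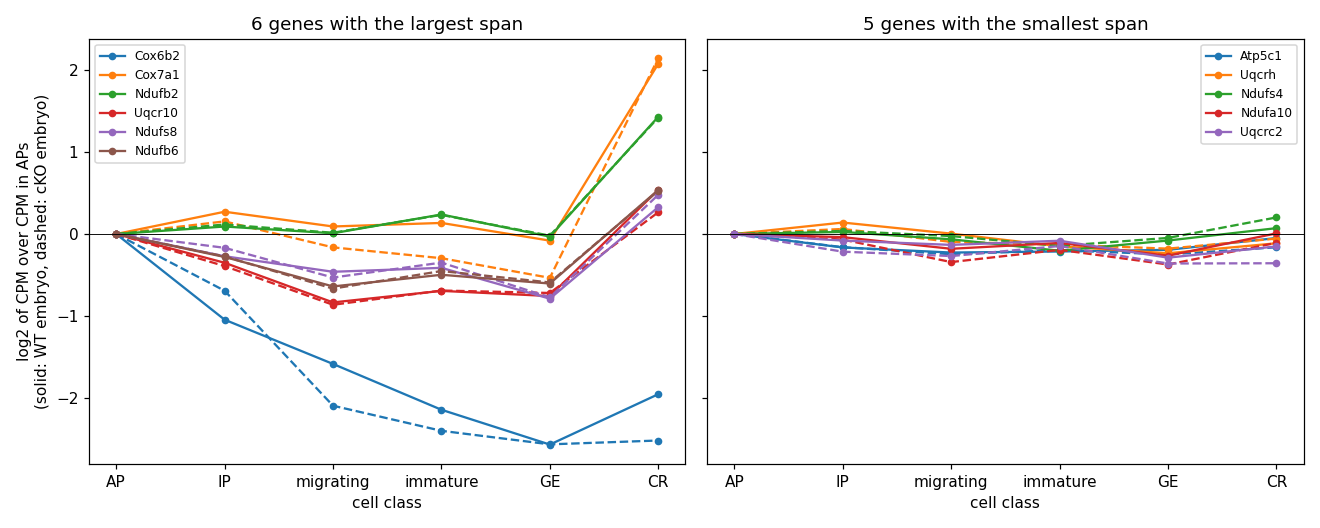
Level of the 6 genes with the largest span (left) and the 5 with the smallest (right) in 6 neural classes, as log2 of the CPM over that in APs, for the WT (solid) and the cKO (dashed) embryo. Cox6b2 lies below 0 in every class after the APs, Cox7a1 and Ndufb2 are above 1 in Cajal-Retzius-like (CR) cells alone, and the genes on the right stay close to 0.

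The c ring isoforms had separate patterns. Atp5g2 was at 701 CPM in APs of both embryos, at 643 and 660 CPM in IPs and at 427 and 437 CPM in migrating neurons. Atp5g1 was at 327 and 363 CPM in APs, at 226 and 240 CPM in IPs and again at 319 and 354 CPM in immature neurons. Atp5g3 stayed between 212 and 366 CPM over all neural classes. Ndufa13, listed at 0 in the cultures and sharing 30% of its exon bases with Tssk6, had 263 and 292 CPM in APs, while Cox6a2, Cox7b2, Cox8b and Cox8c had at most 14 UMIs each.

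The embryos were then compared within classes. The summed level was higher in the cKO embryo in APs by a log2 ratio of 0.10 (95% interval 0.09 to 0.11, exact conditional, counting error only), in IPs by 0.07, in migrating neurons by 0.07, in immature neurons by 0.13 (0.12 to 0.13) and in Cajal-Retzius-like cells by 0.10. In GE cells it was higher by 0.08 and in endothelial cells by 0.24, classes where Emx1-Cre is not expected to act, though its activity was not measured here. Pericytes had -0.08 and red blood cells 0.39. These classes were small, with 24 WT and 33 cKO endothelial cells, 27 and 18 pericytes and 54 and 56 red blood cells. Endothelial cells had a median of 39431 UMIs in the WT and 22067 in the cKO embryo. In red blood cells 0 of the genes reached 200 UMIs. By complex, the AP ratio was 0.15 in complex III, 0.14 in complex IV, 0.09 in complex I and 0.07 in complex V.

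Gene by gene the ratios were small. Of 70 genes with at least 200 UMIs in APs, 11 were past a log2 ratio of 0.2 towards the cKO embryo and none (0) towards the WT embryo, against 12.7% and 10.1% of all genes. In IPs the numbers were 6 and 0 of 70 (12.3% and 10.4% of all genes), in migrating neurons 5 and 0 (12.6% and 9.52%), in immature neurons 19 and 0 (9.51% and 8.78%) and in GE cells 11 and 0 (10.8% and 8.03%). The share above 0.2 was below that of all genes in IPs and migrating neurons, somewhat above it in APs and GE cells, and farther above it in immature neurons. The ratio of respiratory chain to ribosomal protein UMIs was 0.1657 (WT) and 0.165 (cKO) in immature neurons, so ribosomal protein genes shared the higher level there. It was 0.1435 and 0.1508 in APs, 0.1332 and 0.1354 in IPs and 0.1472 and 0.1495 in migrating neurons. In GE cells it was 0.1834 and 0.1946, and in Cajal-Retzius-like cells 0.2421 and 0.2397. Their part in the ratios was not tested. In Cajal-Retzius-like cells 13 of 68 genes were past 0.2 and 2 past -0.2 (15.5% and 19.9% of all genes), and in endothelial cells 42 and 0 of 68 (22.1% and 24.5%). Counting intervals of the AP ratio lay above 0 for 45 of the 70 genes and below 0 for 1, against 14.7% and 15.1% of all genes. Such an interval narrows as UMIs rise, and all genes were not matched to these 70 in UMI number, so these shares are not like for like. The median AP ratio was 0.10 (all genes -0.01).

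In APs the highest ratios were those of Ndufb7, an accessory subunit of complex I (242 CPM in the WT and 292 CPM in the cKO embryo, log2 ratio 0.27), Uqcr10 (216 and 260 CPM, 0.27) and Cox8a (490 and 584 CPM, 0.25). The lowest was Atp5f1, of the peripheral stalk of complex V, at 448 and 409 CPM (-0.13, interval -0.18 to -0.08), the gene whose interval lay below 0. Ndufs8 (102 and 95.2 CPM, -0.10) and Ndufs1 (56.4 and 53.8 CPM, -0.07), both core subunits of complex I, had intervals that included 0.

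The culture and the tissue values were then set beside each other. Of 67 genes measured in both the cultures and APs, 53 were lower in cKO cultures and higher in APs of the cKO embryo, 6 were lower in both, 5 higher in both and 3 the reverse. Over the 9423 genes of the whole tables measured in both, 23.9% were lower in culture and higher in APs, 23.9% lower in both, 24.3% higher in both and 27.8% the reverse. Most of the 67 were lower in culture and most were higher in APs, each taken alone, and a link gene by gene was not tested. Of the 17 genes that fell in culture, 14 had an AP interval above 0 and 3 one that included 0, and of the 48 genes that did not pass in culture 30 had an AP interval above 0. Over all genes these shares were 17.8% of those lower in culture and 12.9% of those that did not pass, again without matching for UMI number, on which the interval depends. Uqcr11, with a log2 fold change of -0.79 in culture, was at 242 CPM in APs of the WT and 285 CPM in those of the cKO embryo (0.24), and Cox8a had -0.70 in culture and 0.25 in APs. The 2 genes that rose in culture, Ndufs4 (-0.06) and Ndufb5 (-0.01), had AP intervals that included 0. The 17 genes of at most 1000 exon bases had a median AP ratio of 0.14 (all genes of that length 0.03). It was 0.10 for the 25 of over 1000 to 2000 bases (all genes 0.003). For the 17 of over 2000 to 4000 bases it was 0.06 (all genes -0.003) and for the 8 of over 4000 to 8000 bases 0.15 (all genes -0.008). The difference between culture and tissue was not tested, since tissue has 1 embryo per genotype.

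**Figure D5:**
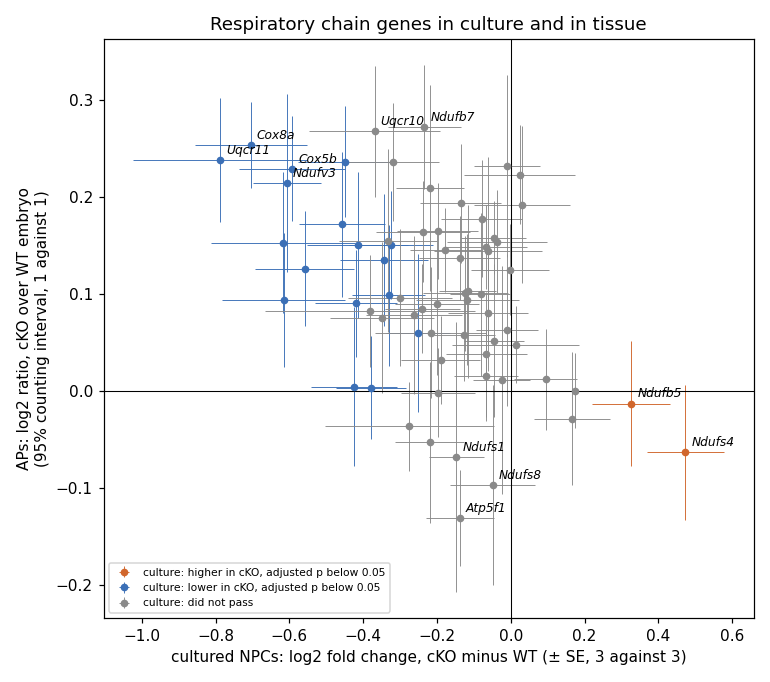
Log2 fold change in cultured NPCs (x axis, cKO minus WT, bars the SE from edgeR, 3 against 3 cultures) against the log2 ratio in APs (y axis, cKO over WT embryo, 1 against 1, bars the 95% counting interval) for 67 respiratory chain genes. Of these, 53 lie in the upper left of the plot, among them Uqcr11 at -0.79 and 0.24, and the 2 genes that rose in culture lie to the right just below 0.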

How the data were processed

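RNA-seq of 6 NPC cultures and scRNA-seq of 2 embryos were analysed; the LACE-seq samples were not analysed here. Gene counts of the cultures were deposited by the authors after HISAT2 alignment to mm10 (counter, annotation and strand setting not given in the sources used here), and UMI counts of the embryos were deposited by the authors as Cell Ranger 7.0.0 matrices. Samples were grouped by their labels. The genes, lists and tests were chosen with earlier results of these data known.

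Counts were filtered with filterByExpr, scaled by TMM and fitted in edgeR 4.0.16 (glmQLFit, robust, no covariate) over the whole table, with Benjamini-Hochberg adjustment over 14432 genes. Tests were checked on simulated counts. Pairs of cultures of a genotype differed beyond sampling noise (chi-square per degree of freedom 5.63 to 27.2) and were counted separately. The study used DESeq2, tried here (1.42.0) with limma-voom (3.58.1).

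Barcodes with 200 or more genes and no more than 10% mitochondrial UMIs were clustered in Seurat 5.3.0 (2000 variable genes, 30 components, resolution 0.8). Doublet calls (298 WT and 451 cKO cells, scanpy 1.11.5) were removed only in an alternative. A cluster took a class name, read as class-like, where at least 3 markers of the class were raised 1.5-fold and no more were unraised than raised. Where several classes qualified, the one with most markers among the leading genes of the cluster was taken. Clusters of low UMI count with no marker among those genes stayed unnamed. This naming rule was set after the clusters were seen. UMIs were summed per class and embryo. Named genes were the 8 largest rises and falls that passed in culture, the isoform sets, core subunits, the 6 largest and 5 smallest spans across neural classes and the 3 highest and lowest AP ratios; the other genes named were chosen after their values were seen. Totals per culture and 95% intervals, which cover counting error only, are in the text. No columns of authors' own comparisons were used.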

Additional observations from a re-analysis of the deposited data

Results flagged for a closer look

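In 13 genes that fell in the cKO cultures with all cKO cultures below all WT cultures, the counting interval of the AP ratio lay above 0, so the direction was opposite in the cKO embryo. AP ratios above 0 were not particular to these genes: 30 of 48 genes that did not pass in culture also had an AP interval above 0. The summed level was higher in the cKO embryo in 25 of 26 clusters. This included a log2 ratio of 0.08 in GE cells and 0.24 in endothelial cells (only 24 WT and 33 cKO cells). Emx1-Cre is not expected to act in these classes, but its activity was not measured here. The difference was not tested, because the tissue has 1 embryo per genotype and the embryos differ in sex. The log2 fold change in culture and the log2 ratio in APs were -0.79 and 0.24 for Uqcr11, -0.70 and 0.25 for Cox8a, -0.62 and 0.09 for Ndufb8, and -0.61 and 0.21 for Ndufv3. They were -0.59 and 0.23 for Cox5b, -0.56 and 0.13 for Ndufa2, -0.46 and 0.17 for Ndufb4, -0.45 and 0.24 for Uqcrq, and -0.42 and 0.09 for Ndufb9. For Ndufa3 they were -0.42 and 0.15, for Ndufs5 -0.34 and 0.14, for Ndufb10 -0.33 and 0.10, and for the c ring gene Atp5g1 -0.33 and 0.15.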

How the results depend on the processing

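In culture, 6 genes were lower under the reported fit and all 15 alternatives (Ndufa2, Ndufb4, Ndufb9, Ndufv3, Cox5b and Atp5d) and 1 was higher (Ndufs4), and 51 of 71 genes kept 1 sign. The count of lower genes was 17 with RLE or upper quartile scaling, with at least 5 CPM in 3 cultures and with limma-voom. It was 18 with DESeq2, 25 without a filter, 14 with the Y-linked level as covariate and 15 with the trend on genomic span removed. Over all genes, 2895 and 2867 of 14432 were lower with the 2 scalings, 2432 of 11007 with the CPM limit and 2767 of 14432 with limma-voom. There were 2754 of 15912 with DESeq2 and 3114 of 22454 without a filter. Of 14432 genes, 2932 were lower with the covariate and 2719 with the trend removed. With the replicate number as a block 19 respiratory chain genes were lower and 2 higher, with a median of -0.19 (all genes 3216 and 3189 of 14432). Cox8a, Uqcr11 and Ndufa3 then no longer passed. Same-numbered cultures correlated by 0.264, -0.0466 and 0.116, so the numbers were not taken as pairs. Leaving out 1 culture gave 8 to 29 lower and 1 to 3 higher genes and medians from -0.11 to -0.27. Over all genes it gave 2040 to 3275 lower and 2068 to 3070 higher, of 14689 to 14786 tested. Uqcr11, Ndufs5 and Ndufs7 no longer passed with the Y-linked level as covariate, nor Ndufs5, Ndufs7 and Atp5g1 with the span trend removed. None of the 19 genes that passed turned its direction under these alternatives. The causes were not tested.

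In tissue, clustering, filtering, weighting and scaling moved summed levels by more than their counting intervals, which are narrow. In the order WT and cKO embryo, in CPM, resolution 0.4 gave 20110 and 21700 in APs, 17863 and 18796 in IPs, 15900 and 16538 in migrating and 17386 and 18986 in immature neurons. Resolution 1.2 gave 17871 and 18735 in IPs, 15871 and 16803 in migrating and 17433 and 19169 in immature neurons. At both resolutions immature neurons passed IPs in the cKO embryo. Without called doublets, levels were 20811 and 22520 in APs, 20164 in cKO IPs, 17358 and 18896 in immature neurons, 17001 and 18020 in GE cells and 25580 and 26757 in Cajal-Retzius-like cells. With limits of 1000 genes and 5% mitochondrial UMIs, WT immature neurons were at 17224 and cKO GE cells at 17771. With cells weighted equally, levels were 22394 and 23514 in APs, 19417 and 20412 in IPs, 16955 in cKO migrating neurons, 16797 and 18224 in immature neurons, 15843 and 16866 in GE cells and 25015 and 26703 in Cajal-Retzius-like cells. Scaled without mitochondrial, haemoglobin and ribosomal protein genes, they were 24308 and 26120 in APs, 22694 and 24002 in IPs, 18757 and 19745 in migrating neurons, 19508 and 21547 in immature neurons, 18699 and 19816 in GE cells and 27785 and 30094 in Cajal-Retzius-like cells, so GE cells were lowest in the WT embryo. Without the 5 genes with most UMIs (Atp5b, Cox7c, Cox5a, Cox6c and Atp5g2), they were 17365 and 18669 in APs, 16092 and 16964 in IPs, 13950 and 14671 in migrating neurons, 14646 and 16024 in immature neurons, 14098 and 15079 in GE cells and 21652 and 23226 in Cajal-Retzius-like cells. Without clusters of low UMI count, chosen after seeing the data, APs were at 19870 and 21388.

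The log2 ratio of the embryos stayed above 0 in every neural class. In APs it was 0.11 at resolution 0.4, 0.114 without doublets and 0.0704 with cells weighted equally. In migrating neurons it was 0.0567 and 0.0823 at resolutions 0.4 and 1.2, 0.0511 with equal weights and 0.0517 without the Tfap2d cluster, also chosen after seeing the data, which left the cKO level at 16910 CPM. In immature neurons it was 0.137 at resolution 1.2, 0.118 with equal weights and 0.143 with the other scaling, in GE cells 0.0971 without the 5 genes, and in Cajal-Retzius-like cells 0.0649 without doublets.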

Other observations

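Groups that serve the chain without being part of it were also summed in tissue, as CPM in the WT and the cKO embryo. The 14 complex I assembly factors were at 546 and 558 in APs, 424 and 439 in migrating neurons and 573 and 566 in Cajal-Retzius-like cells. The 24 assembly factors of complexes III to V were at 1200 and 1208 in APs, 1044 and 1060 in migrating neurons and 1410 and 1435 in Cajal-Retzius-like cells, so both groups were, like the subunit genes, lower in migrating neurons than in the other 2 classes in both embryos. The 14 genes of the tricarboxylic acid cycle were at 1257 and 1271 in APs and 1065 and 1068 in Cajal-Retzius-like cells, below the APs in both embryos. Cox4i1, the subunit of complex IV outside the name rule, was listed at 0 in the cultures and had 911 and 921 CPM in APs and 1268 and 1305 CPM in Cajal-Retzius-like cells.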
